A study of Mus musculus with 12 samples.

Results

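The nuclear genes of the mitochondrial ribosomal proteins were examined in C2C12 myotubes treated with the mitochondrial uncoupler BAM15. Members were taken by symbol, as every gene whose name starts with Mrpl or Mrps followed by a digit, pseudogenes excluded. This gave 77 of the 15113 genes in the count table. Of these, 50 encode proteins of the large subunit of the mitochondrial ribosome and 26 encode proteins of the small subunit. The remaining one, Mrps36, carries the name but is now known as a component of the alpha-ketoglutarate dehydrogenase complex. Mrpl53 is not analysed here. The symbol does not always name the subunit, since the products of Mrps30 and Mrps18a sit in the large subunit and are counted there.

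C2C12 cells are mouse myoblasts of an established line, and in low serum they fuse into multinucleated myotubes. BAM15 is a protonophore, a small molecule that carries protons across the inner mitochondrial membrane and so lets respiration run without ATP synthesis. Myotubes received 20 µM BAM15 or the vehicle DMSO during 16 h, with 6 libraries sequenced from each group. All libraries come from 1 cell line with no genetic change, and nothing in the sources used here says that they are separate cultures, so the p-values measure only the spread between these libraries.

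Mitochondria translate the few mRNAs of their own genome on a ribosome of their own. Its RNAs are transcribed from mitochondrial DNA, whereas all of its proteins are encoded in the nucleus, made in the cytosol and imported. Some of these proteins descend from the ribosome of the bacterial ancestor and others were added in the mitochondrial lineage. The products of this ribosome are hydrophobic core subunits of the respiratory chain and of ATP synthase, on which muscle fibers depend.

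Libraries held between 13983725 and 18866728 reads counted on genes. Reads were made by QuantSeq, which primes from the poly(A) tail, so a count does not scale with transcript length and levels are given as normalized counts, not divided by length. The markers of myotubes were high, with 8 of 8 tested and a summed level of 403100 ± 12100 normalized counts in vehicle and 419000 ± 47300 in BAM15 libraries (SD, n = 6 each). Of these 8 markers, 2 were lower and 2 higher. Markers of cycling or undifferentiated myoblasts summed to between 5486 and 6386 in vehicle and between 2144 and 2632 in BAM15 libraries, with 5 of 6 lower, Myf5 higher and none at 0. In bulk RNA, fewer cells of a type and less RNA per cell cannot be told apart, and the part of these cells in the results below was not tested.

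The promoters of the members were searched for short sequences that regulators of mitochondrial genes are known to bind, and most held none of the NRF1, ETS and YY1 letters. A promoter, 250 bases before to 50 after the start site, was found in RefSeq (build GRCm38.p6) for 68 of the 77 members, and letters were searched on both strands. The NRF1 letters GCATGCGC stood in 8 of the 68 (11.8%), against 6.15% of the 9587 tested genes with a promoter. The ETS letters CCGGAAGT, which GABP binds, stood in 12 (17.6%, against 9.36%), and the YY1 letters AAGATGGC stood in 12 (17.6%, against 5.48%). At least 1 of these motifs was present in 29 of 68 members (42.6%), against 19.4% of tested genes and 9.91% of all 27025 promoters. The MYC E-box CACGTG stood in 7.35% of members and 12% of tested genes, the CRE TGACGTCA in 2.94% and 3.65%, and the ATF4 letters TGATGNAA in 0 of 68 and 2.7%. A match is a description of letters and not evidence of binding, and neighboring matches can overlap.

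The following promoters are shown 5′ to 3′ on the strand of the gene, with NRF1, ETS and YY1 matches in capitals. The first 2 belong to the member that rose and the member that fell with the lowest p-values, and the other 3 are the members with matches to more than 1 of these motifs. Mrpl24 lies at chr3:87919294-87919593 (plus strand) and held no match. Mrpl18 lies at chr17:12916042-12916341 (minus strand), with an ETS match starting at -240 from the RefSeq start site. In the GENCODE annotation the genes Mrpl18 (5′ end at 12916345) and Mrpl33 (31596935) start earlier. The stretches shown for these 2 therefore lie inside the GENCODE genes. Mrpl24 (5′ end at 87919506) and Mrpl32 (14613165) also start earlier there, at a position within the stretch shown. The bases after that position, with all NRF1 matches of Mrpl32, lie inside the GENCODE gene. Mrpl32 at chr13:14612988-14613287 (minus strand) held a YY1 match and 4 NRF1 matches, of which those at -87 and -85 overlap. Mrpl33 at chr5:31613701-31614000 (plus strand) held adjacent NRF1 and ETS matches next to the start site, and Mrps27 at chr13:99344536-99344835 (plus strand) held ETS and YY1 matches.
Mrpl24: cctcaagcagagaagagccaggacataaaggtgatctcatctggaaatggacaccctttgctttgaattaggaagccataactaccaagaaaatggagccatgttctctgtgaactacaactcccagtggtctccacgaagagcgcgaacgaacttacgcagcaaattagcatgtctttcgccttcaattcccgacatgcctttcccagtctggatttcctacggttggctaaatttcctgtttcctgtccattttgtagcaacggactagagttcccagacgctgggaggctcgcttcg
Mrpl18: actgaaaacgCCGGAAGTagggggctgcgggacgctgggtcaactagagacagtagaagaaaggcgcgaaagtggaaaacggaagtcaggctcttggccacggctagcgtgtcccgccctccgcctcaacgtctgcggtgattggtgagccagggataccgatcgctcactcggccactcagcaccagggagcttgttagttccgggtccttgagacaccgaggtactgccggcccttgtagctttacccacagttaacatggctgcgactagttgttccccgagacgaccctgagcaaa
Mrpl32: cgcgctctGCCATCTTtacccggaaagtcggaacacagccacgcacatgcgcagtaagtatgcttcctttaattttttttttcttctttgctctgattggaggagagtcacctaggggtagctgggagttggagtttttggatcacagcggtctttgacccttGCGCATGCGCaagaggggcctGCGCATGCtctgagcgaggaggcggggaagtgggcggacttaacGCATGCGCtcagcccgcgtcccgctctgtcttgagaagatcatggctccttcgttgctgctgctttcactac
Mrpl33: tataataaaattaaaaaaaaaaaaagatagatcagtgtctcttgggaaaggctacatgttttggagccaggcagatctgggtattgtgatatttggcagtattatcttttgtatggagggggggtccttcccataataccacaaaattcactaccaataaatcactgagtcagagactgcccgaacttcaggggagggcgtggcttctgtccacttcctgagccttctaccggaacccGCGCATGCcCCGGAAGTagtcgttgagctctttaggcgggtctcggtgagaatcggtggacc
Mrps27: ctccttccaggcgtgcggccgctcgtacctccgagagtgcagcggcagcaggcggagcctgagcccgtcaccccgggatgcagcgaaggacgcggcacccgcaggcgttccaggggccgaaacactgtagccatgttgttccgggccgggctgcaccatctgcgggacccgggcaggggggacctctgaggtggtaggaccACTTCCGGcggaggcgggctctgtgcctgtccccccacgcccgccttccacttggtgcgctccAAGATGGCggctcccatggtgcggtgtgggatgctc

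With BAM15 the mRNAs of mitochondrial ribosomal proteins stayed as a group close to their level in vehicle, with modest changes of single members in both directions. Summed over the 77 members, the level was 70520 ± 1610 normalized counts in BAM15 and 70600 ± 2070 in vehicle libraries (SD, n = 6 each). The ranges overlapped, from 67810 to 72570 and from 67990 to 72840. The large subunit summed to 50840 ± 1070 with BAM15 and 50950 ± 1670 with vehicle, and the small subunit to 19670 ± 733 and 19630 ± 462. Before scaling, members made up 0.39% to 0.432% of the counts of a BAM15 library and 0.41% to 0.447% of those of a vehicle library.

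All 77 members passed the filter on low counts and were tested with 12730 genes in all (quasi-likelihood test of edgeR). Adjustment by Benjamini and Hochberg ran over all tested genes, and the threshold was 0.01. Of the members 9 were lower with BAM15, against 20.3% of all tested genes, and 9 were higher, against 22% of all tested genes. Together 18 members (23.4%) were called, whereas 42.3% of tested genes were. No member passed the stricter thresholds of the study, an adjusted p below 0.01 with a mean normalized count above 50 and a change of more than 2-fold, which 7.28% of tested genes passed. The count was also 0 by DESeq2 and limma-voom and at an unadjusted p below 0.05, since the 2 members fitted beyond 2-fold, Mrps18b and Mrps28, had mean counts below 50. BAM15 and vehicle libraries did not overlap for 8 members that were lower (17% of tested genes) and for 6 members with a higher level (17.1%).

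The median log2 fold change of the members was 0.0155 and that of all tested genes 0.0237. The median flipped to -0.0467 when libraries were scaled by total count only, where the median of all tested genes was -0.0377. The middle 50% of the members lay between -0.122 and 0.128 on the log2 scale, and that of all tested genes between -0.288 and 0.355. A change of more than 0.5 on the log2 scale in either direction was fitted for 6 members (7.79%) and for 33.1% of tested genes. Members had a higher median level than tested genes, 772.5 against 319.6 normalized counts in vehicle, and a lower median standard error, 0.0729 against 0.107. For 71 of the 77 members the 95% interval of the change lay wholly inside 2-fold, and for 49 of the 59 members without a call it lay inside 1.5-fold.

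**Figure D1:**
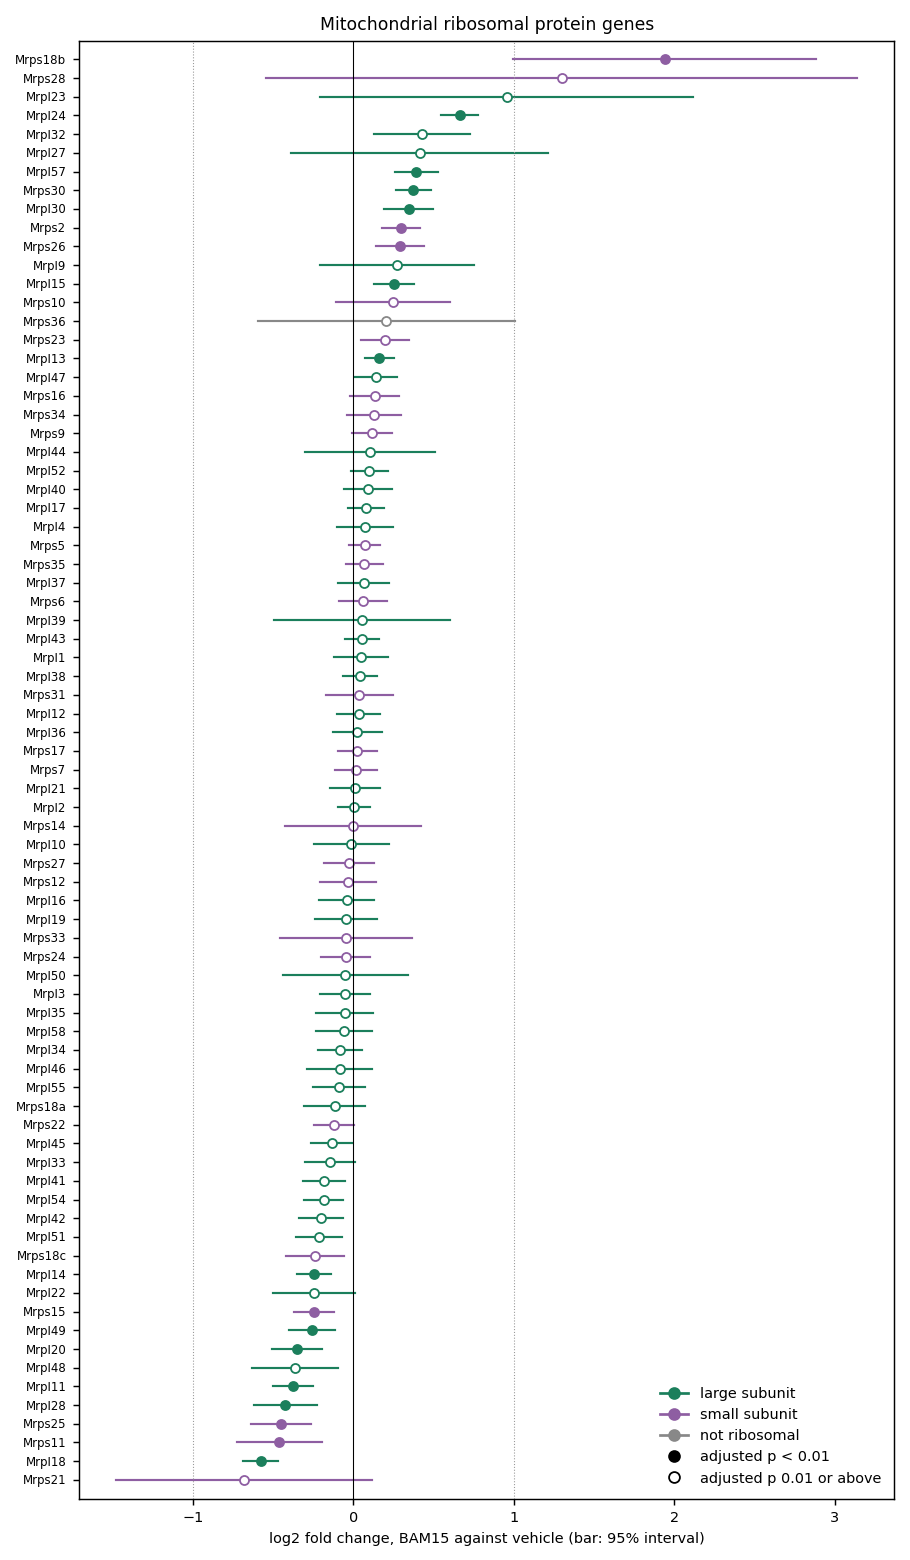
Log2 fold change of each of the 77 members, BAM15 against vehicle (x axis), with the 95% interval as a bar, ordered by size. Colour gives the subunit and filled points mark the 18 called members, which lie on both sides of 0. Long bars belong to members with few counts or with a wide spread among BAM15 libraries.

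Subunits and origins were represented on both sides. Of the 50 large subunit members 6 were lower and 6 higher, and of the 26 small subunit members 3 were lower and 3 higher. Among large subunit proteins of bacterial ancestry 9 of 30 were called (5 lower, 4 higher), and among those added in mitochondria 3 of 20 (1 lower, 2 higher). In the small subunit 3 of 16 proteins of bacterial ancestry and 3 of 10 added ones were called. The share called was 24% in the large and 23.1% in the small subunit, and 15% to 30% in the classes by origin. All of these were below the 42.3% of all tested genes. Differences between these classes were not tested.

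The member with the lowest p-value among those that fell was Mrpl18 (ENSMUSG00000057388, chr17:12911349-12916345, minus strand, GRCm38), whose product is a large subunit protein of bacterial ancestry. It measured 1831, 1699, 1908, 1747, 1788 and 1827 normalized counts in vehicle libraries 1 to 6 and 1303, 1259, 1210, 1134, 1157 and 1172 in BAM15 libraries 1 to 6. Every BAM15 library was below every vehicle library. The log2 fold change was -0.58 ± 0.05 (SE, edgeR adjusted p = 2.05e-07, n = 6 against 6).

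Mrpl11 (ENSMUSG00000024902, chr19:4962147-4966999, plus strand), a protein at the base of the ribosomal stalk where translation factors bind, was also lower. Vehicle libraries 1 to 6 held 1016, 885, 1063, 935, 1051 and 1006 normalized counts, and BAM15 libraries 809.6, 741, 753, 770.1, 726 and 787. The groups did not overlap, and the log2 fold change was -0.38 ± 0.06 (SE, edgeR adjusted p = 5.78e-05). The other measured proteins of the stalk were not called. These were Mrpl10 at -0.01 ± 0.11, Mrpl12 at 0.03 ± 0.06 and Mrpl54 at -0.19 ± 0.06 on the log2 scale (SE). Mrpl54, with an edgeR adjusted p of 0.0138 and groups that did not overlap, passed the threshold under 6 of 25 alternatives. The log2 fold change of Mrpl54 was -0.214 without vehicle replicate 2 and -0.211 without vehicle replicate 4 (edgeR adjusted p = 0.00786 and 0.00865). Mrpl12, a protein of the stalk itself, ranged from 1759 to 1991 normalized counts in vehicle and from 1746 to 2149 in BAM15 libraries.

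Mrps25 (chr6:92169525-92184033, minus strand), a small subunit protein specific to mitochondria, measured 996, 1102, 1022, 916, 1010.0 and 1080 normalized counts in vehicle libraries 1 to 6. BAM15 libraries 1 to 6 held 824, 829.7, 862, 723, 614 and 633. All BAM15 libraries were lower, those numbered 4 to 6 most (log2 fold change -0.45 ± 0.09, SE, edgeR adjusted p = 0.00053). The last 400 bases of the Mrps25 transcript lie within exons of Nr2c2 on the opposite strand, and strand is not named for the counting, so that the reads of both genes cannot be told apart. Nr2c2 itself was not called, at 0.27 ± 0.10 on the log2 scale.

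Mrpl14, Mrpl20 and Mrpl28, large subunit proteins of bacterial ancestry, were the other members of the first 6 that fell. Mrpl14 ranged from 1659 to 1910.0 normalized counts in vehicle and from 1433 to 1575 in BAM15 libraries. Mrpl20 ranged from 858 to 1022 and from 621 to 822, and Mrpl28 from 948 to 1095 and from 620 to 923. None of these 3 members overlapped between the groups. Their log2 fold changes were -0.25 ± 0.05, -0.35 ± 0.07 and -0.42 ± 0.09 (SE), with edgeR adjusted p-values of 0.00061, 0.00081 and 0.00133.

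The member with the lowest p-value of all was Mrpl24 (ENSMUSG00000019710, chr3:87919506-87923672, plus strand), a large subunit protein near the exit of the peptide tunnel. Vehicle libraries 1 to 6 held 1543, 1439, 1570, 1469, 1553 and 1448 normalized counts, and BAM15 libraries 2528, 2361, 2541, 2160, 2242 and 2456. All BAM15 libraries exceeded all vehicle libraries, and the log2 fold change was 0.66 ± 0.05 (SE, edgeR adjusted p = 7.67e-08). Exons of Rrnad1 on the opposite strand cover the whole of the last 400 bases of the Mrpl24 transcript. Rrnad1 was higher as well, from 86.4 ± 11.2 to 162 ± 13.1 normalized counts (SD, n = 6 each), a log2 fold change of 0.91 ± 0.10 (SE, edgeR adjusted p = 2.38e-06), and its part in the count of Mrpl24 was not tested.

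The other 7 proteins around the tunnel exit were not called, with log2 fold changes from -0.25 ± 0.12 (SE) for Mrpl22 to 0.95 ± 0.54 for Mrpl23. Mrpl17, Mrpl39, Mrpl44, Mrpl45 and Mrpl47 lay between. Mrpl45, which holds the ribosome at the inner membrane, was at -0.14 ± 0.06. Mrpl23 had a mean of 8.2 normalized counts in vehicle. Of the windows of 50 bases in the last 400 bases of its transcript, 99.43% are shared with the pseudogene Mrpl23-ps1. Mrpl22 shares 49.86% of the windows in its last 400 bases with Gm6997, so the counts of both members are uncertain.

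Mrps30 (ENSMUSG00000021731, chr13:118378381-118387252, minus strand) has no other gene over its last 400 bases and shares no window of 50 bases within them. It measured 902.5, 890.3, 922, 872.5, 929.9 and 866 normalized counts in vehicle libraries 1 to 6. BAM15 libraries 1 to 6 held 1254, 1070.0, 1167, 1135, 1149 and 1199, all above every vehicle library. The log2 fold change was 0.37 ± 0.05 (SE, edgeR adjusted p = 1.84e-05).

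Mrpl57, another large subunit protein without a bacterial counterpart, ranged from 711 to 816.5 normalized counts in vehicle and from 897.5 to 1095 in BAM15 libraries. Mrps2, a small subunit protein of bacterial ancestry, ranged from 577 to 622 and from 667 to 805. Neither overlapped between the groups, and the log2 fold changes were 0.39 ± 0.06 and 0.30 ± 0.06 (SE, edgeR adjusted p = 8.76e-05 and 0.000404). Mrpl30 ranged from 1151 to 1471 and from 1467 to 1767, where the highest vehicle library lay just above the lowest BAM15 library (log2 fold change 0.34 ± 0.07, SE, edgeR adjusted p = 0.000797).

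Mrps18b had the largest fitted increase of the members and the lowest vehicle level. It measured 0.88, 5.32, 5.73, 11.9, 6.19 and 0.904 normalized counts in vehicle libraries 1 to 6 and 17.5, 27.0, 25.4, 23.5, 13.1 and 9.34 in BAM15 libraries. The groups overlapped in 1 library on each side, and the log2 fold change was 1.94 ± 0.44 (SE, edgeR adjusted p = 0.00172). It is below the mean count of 50 that the study required, and Gm16279 on the opposite strand covers its last 400 bases.

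Its paralogs Mrps18a and Mrps18c were not called. Mrps18a held 493 to 535 normalized counts in vehicle and 359.5 to 542 in BAM15 libraries (log2 fold change -0.12 ± 0.09, SE), and Mrps18c was at -0.24 ± 0.08 on the log2 scale (SE, edgeR adjusted p = 0.0255). Mrps18c was called lower under 4 of 25 alternatives, the block for numbers 1 to 3 against 4 to 6, numbers 1 to 3 only (edgeR adjusted p = 0.000163), without BAM15 replicate 5 and limma on the deposited signal. The log2 fold change of Mrps18c was -0.302 without BAM15 replicate 5 (edgeR adjusted p = 0.00282). Mrps36, the member outside the ribosome, held 2.13 to 17.6 normalized counts in vehicle and 6.58 to 20.6 in BAM15 libraries. Its log2 fold change of 0.21 ± 0.38 (SE) has an interval from -0.60 to 1.01, too wide to show a change of either sign.

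**Figure D2:**
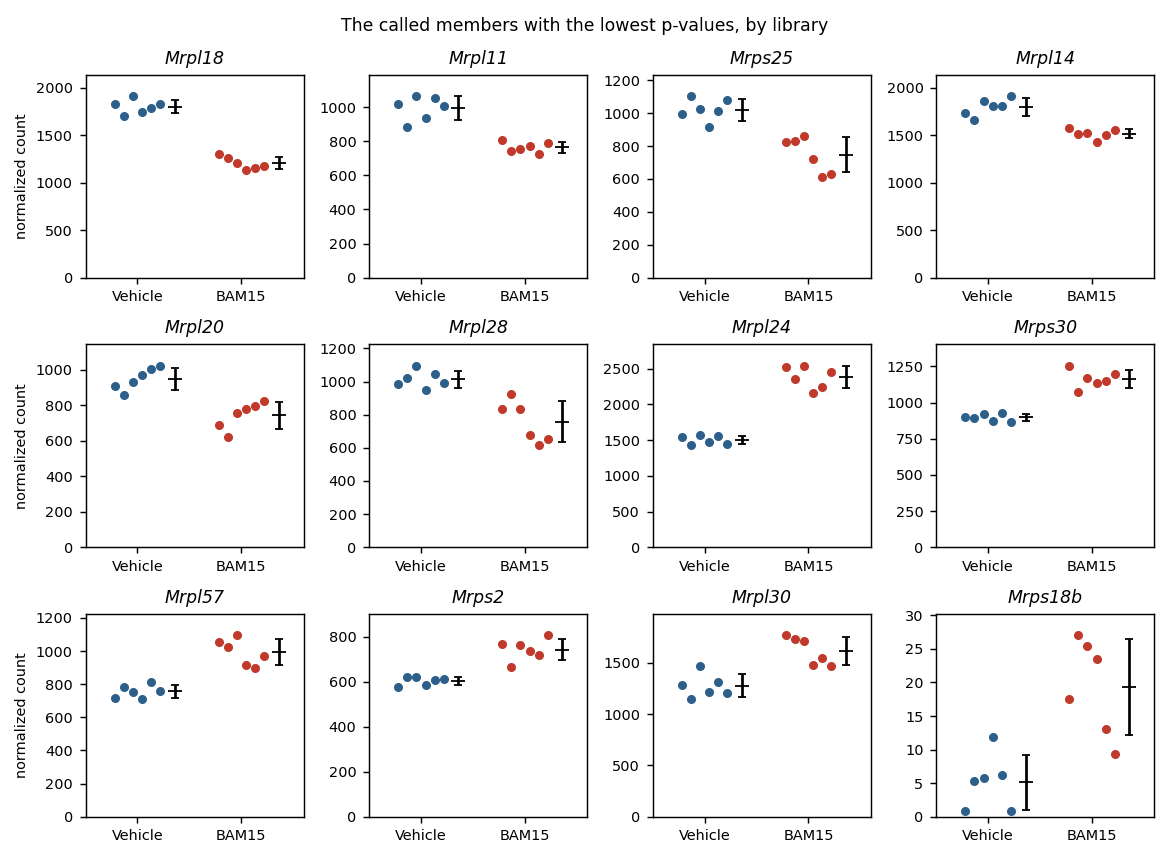
Normalized counts (y axes, each from 0) of the 6 lower and the 6 higher members with the lowest p-values in the 6 vehicle and 6 BAM15 libraries, in order of library number. Bars show mean ± SD. Mrpl18 and Mrpl24 are fully separated, and Mrpl30 and Mrps18b overlap.

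Among the other 6 called members, Mrps15, Mrps11 and Mrpl49 were lower by between 0.25 and 0.46 on the log2 scale, and Mrpl13, Mrpl15 and Mrps26 were higher by 0.16 to 0.29. Mrpl13, Mrpl49 and Mrps11 lost their call when single libraries were left out. Without BAM15 replicate 1 the edgeR adjusted p was 0.013 for Mrpl13 and 0.0132 for Mrps11, and without BAM15 replicate 4 it was 0.0118 for Mrpl49. Mrpl13 also lost its call without vehicle replicate 1, 2, 3, 4 or 6, Mrpl49 without BAM15 replicate 3 or vehicle replicate 1, 5 or 6, and Mrps11 without BAM15 replicate 3 or vehicle replicate 2 or 4.

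In vehicle, Mrpl52 and Mrpl33 had the highest levels of the members, with 3324 ± 242 and 3265 ± 272 normalized counts (SD, n = 6), which did not differ beyond their spread. Mrpl54 followed with 1896 ± 144. The lowest were Mrps18b with 5.15 ± 4.08, Mrpl23 with 8.2 ± 2.92 and Mrps36 with 10.7 ± 5.55, and Mrps28 was the only other member below 50. The 2 most abundant members were not called, at 0.10 ± 0.05 for Mrpl52 and -0.15 ± 0.07 for Mrpl33 on the log2 scale (SE).

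Proteins of the cytosolic ribosome, for comparison, were mostly higher. Taken by symbol (Rpl or Rps and a digit, without pseudogenes and Rps6k kinases), 82 genes were tested. By edgeR 59 of them (72%) were higher and 0 lower at an adjusted p below 0.01, against 22% and 20.3% of all tested genes. The count of lower genes was also 0 at an unadjusted p below 0.05, by DESeq2 and by limma-voom. The median log2 fold change of these genes was 0.478. Their summed level was 1090000 ± 27700 normalized counts in BAM15 and 783800 ± 28300 in vehicle libraries (SD, n = 6 each), without overlap. The difference between the 2 ribosomes in log2 fold change was not tested. Fau, which encodes a precursor of a cytosolic ribosomal protein, starts 59 bases from Mrpl49 on the other strand. It was higher by 0.41 ± 0.04 on the log2 scale (SE, edgeR adjusted p = 1.13e-06), while Mrpl49 was lower by 0.26 ± 0.07.

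Start sites of a gene on the other strand lay within 1000 bases of that of 33 of the 77 members (42.9%), against 16.8% of 11708 tested protein-coding genes. Of 31 such neighbors that were tested, 14 were called (45.2%, against 42.3% of all tested genes), 8 higher and 6 lower. Both genes were called in 4 pairs, in the same direction only for Mrpl13 and Mtbp, and in opposite directions for Mrpl49 and Fau, Mrpl57 and Ska3, and Mrps18b and Ppp1r10. Ska3, a kinetochore gene, fell from 50.4 ± 8.41 to 16.5 ± 5.23 normalized counts (SD) while Mrpl57 rose. Tcp1, a subunit of the cytosolic chaperonin that starts 644 bases from Mrpl18, was at 0.09 ± 0.05 on the log2 scale and was not called. Mrpl46 and Mrps11 are members that neighbor each other, and only Mrps11 was called.

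Proteins of the mitochondrial ribosome with other symbols showed no call in 5 tested (Dap3, Ptcd3, Chchd1, Aurkaip1 and Gadd45gip1), against 42.3% of all tested genes. Chchd1 was the closest at 0.14 ± 0.05 (SE, edgeR adjusted p = 0.0455). At an unadjusted p below 0.05 edgeR gave 2 of the 5, and DESeq2 and limma-voom called 0. Of 26 assembly factors 6 were higher and 1 lower, 26.9% in all against 42.3% of tested genes. With scaling by library size only, 4 were higher and 2 lower. The GTPase Gtpbp6 rose from 437 ± 38.6 to 796 ± 110 normalized counts (log2 fold change 0.86 ± 0.09, SE, edgeR adjusted p = 1.41e-06). Rcc1l (0.63 ± 0.07), Tfb1m, a methyltransferase of the small rRNA (0.62 ± 0.09), Mrm1 (0.62 ± 0.14), Mrm3 (0.36 ± 0.09) and the helicase Dhx30 (0.29 ± 0.06) were also higher on the log2 scale. Dhx30 and Mrm3 lost their calls with library size only and with numbers 4 to 6 only, and Dhx30 also with numbers 1 to 3 only. Mrm2, a methyltransferase of the large rRNA, fell from 134 ± 12.1 to 72.7 ± 7.29 (log2 fold change -0.88 ± 0.10).

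Of 15 tested mitochondrial translation factors only the recycling factor Mrrf was called (6.67%, against 42.3% of all tested genes). Mrrf was at 0.26 ± 0.07 on the log2 scale (SE, edgeR adjusted p = 0.00582). That call was lost without BAM15 replicate 1, 2 or 3 or any of vehicle replicates 2 to 6. Of 7 genes of mitochondrial transcription and replication, the helicase Twnk (0.73 ± 0.07) and the polymerase subunit Polg2 (0.74 ± 0.18) were higher. This share of 28.6% was below the 42.3% of all tested genes. Twnk neighbors Mrpl43, which was not called. Of 8 genes for factors linked to the promoters of members, 3 were called (37.5%, against 42.3% of all tested genes). Myc rose from 14.5 ± 5.19 to 78.9 ± 43.2 normalized counts (log2 fold change 2.45 ± 0.34, SE, edgeR adjusted p = 2.38e-05). Pprc1 was higher by 0.55 ± 0.09 (SE), and the coactivator Ppargc1b was lower by 0.31 ± 0.08, a call lost without BAM15 replicate 1 or 6 or vehicle replicate 3, 4 or 6. Nrf1, Gabpa and Yy1 were not called, with 0.18 ± 0.08, 0.21 ± 0.08 and -0.01 ± 0.11 on the log2 scale.

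RNAs encoded in the mitochondrial genome differed in direction. The rRNAs mt-Rnr1 and mt-Rnr2 were higher, at 1.24 ± 0.20 and 0.83 ± 0.18 on the log2 scale (SE, edgeR adjusted p = 0.000173 and 0.00134), although poly(A) priming reads these RNAs only in part. Within library numbers 1 to 3 alone neither was called (edgeR adjusted p = 0.0265 and 0.0529), with log2 fold changes of 1.224 and 0.876. Of 7 tested mitochondrial mRNAs, mt-Co1 (2.23 ± 0.09) and mt-Nd5 (1.01 ± 0.09) were higher and mt-Nd1 (-0.96 ± 0.12) and mt-Nd2 (-1.13 ± 0.15) lower. These calls made up 57.1% of the 7, against 42.3% of all tested genes. Within numbers 1 to 3 alone mt-Nd2 was at -1.16 and was not called (edgeR adjusted p = 0.0139).

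**Figure D3:**
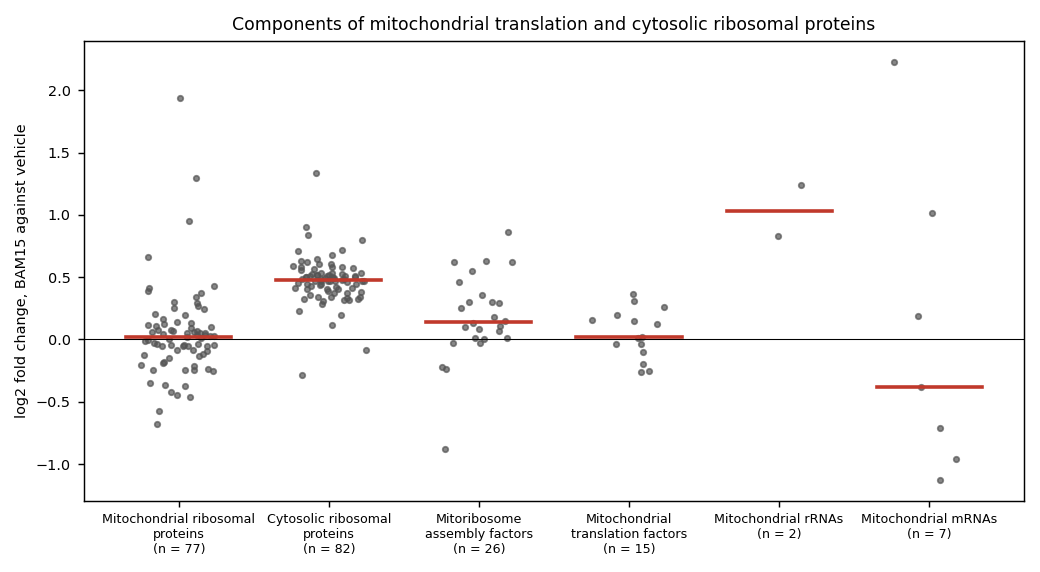
Log2 fold change of single genes (points), BAM15 against vehicle, in 6 gene groups, with the median of each group as a red line. The mitochondrial ribosomal proteins center near 0 and the cytosolic ribosomal proteins near 0.478.

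BAM15 libraries 4 to 6 differed from BAM15 libraries 1 to 3 for a number of members, at shares near those of all tested genes. This comparison of library numbers was chosen with the data known. By the edgeR test 13 of the 77 members were higher in libraries 4 to 6, against 1723 of 12730 tested genes (13.5%). Another 10 members were lower, against 1358 tested genes (10.7%). The same comparison among vehicle libraries called 0 members by edgeR, and 0 of all 12730 tested genes. At an unadjusted p below 0.05 edgeR gave 3 members. With libraries scaled by total count only, 15 members were higher and 2 lower in BAM15 libraries 4 to 6. Of the 82 cytosolic ribosomal protein genes, 30 were higher and 12 lower in BAM15 libraries 4 to 6 with the main scaling. What the library numbers stand for is not given in the sources used here.

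Mrpl39, near the tunnel exit, was one of these. BAM15 libraries 1 to 6 held 589, 399, 580.1, 916, 1286 and 1233 normalized counts, and vehicle libraries 736, 732, 741.5, 866, 869 and 869.5. The first 3 BAM15 libraries lay below all vehicle libraries and the last 3 above. The difference of BAM15 libraries 4 to 6 from 1 to 3 was 1.13 ± 0.14 on the log2 scale (SE, edgeR adjusted p = 0.000116). Vehicle libraries 4 to 6 also all lay above vehicle libraries 1 to 3, by 0.24 on the log2 scale, without a call (edgeR adjusted p = 0.841). Over all libraries Mrpl39 was at 0.06 ± 0.25 and was not called.

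Mrps21, a small subunit protein of bacterial ancestry, held 81.6, 48.6, 90.3, 174, 274 and 252 normalized counts in BAM15 libraries 1 to 6 and 182.5 to 326 in vehicle. Its first 3 BAM15 libraries lay below all others, with a log2 fold change against vehicle libraries 1 to 3 of -1.49 (edgeR adjusted p = 1.85e-06), and -0.29 among libraries 4 to 6. Mrps14 (228 to 285 and 398 to 602), Mrpl44, Mrpl27 and Mrpl50 were likewise higher in BAM15 libraries 4 to 6. Mrps33, Mrpl28, Mrpl46, Mrps25 and Mrpl58 were lower there, by 0.34 to 0.77 on the log2 scale. Of the 23 members that differed by library number, 15 had opposite signs against vehicle within numbers 1 to 3 and 4 to 6. Mrpl23 and Mrps28 were not tested within numbers 1 to 3, so their signs could not be compared. Only Mrpl28, Mrps25 and Mrps11 of the 23 were also called between conditions. All 18 called members kept their sign in both sets of library numbers. Of these, 14 were below the threshold within numbers 1 to 3 and 8 within numbers 4 to 6. Both the 18 and the 23 members were chosen from fits on these same libraries, so these counts are no independent check.

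**Figure D4:**
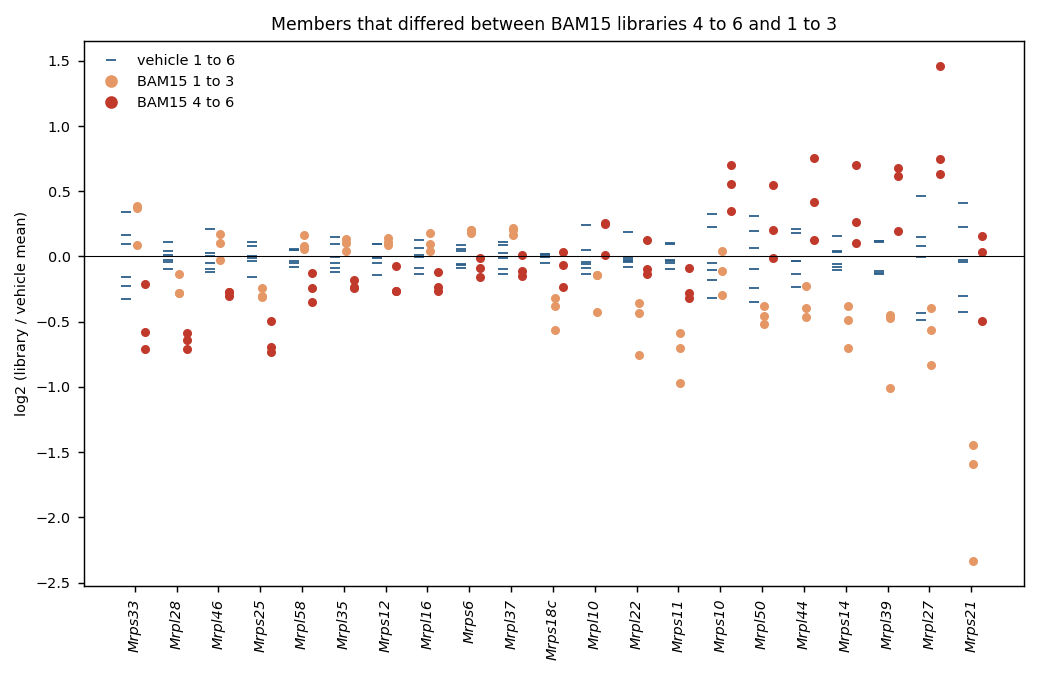
Level of each member relative to its vehicle mean (log2, y axis) for the members that differed between BAM15 libraries 4 to 6 and 1 to 3, ordered by that difference, with Mrpl23 and Mrps28 left out for their low counts. Points are BAM15 libraries and dashes vehicle libraries. For Mrpl39, Mrps14 and Mrpl27, libraries 1 to 3 lie below the vehicle mean and libraries 4 to 6 above it.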

How the data were processed

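RNA was measured in 6 BAM15 and 6 vehicle libraries. Deposited counts are whole reads per gene, made by the authors from QuantSeq reads with BlueBee software. The aligner, genome build and strand of counting are not given in the sources used here. The deposited normalized signal was made by the authors with DESeq2 (version 1.22.2 in the submitters' processing notes) and served 1 alternative. The tables hold 11 further columns of other samples, not used here. Depth was 13983725 to 18866728 counts per library, and at most 3 counts was taken as not detected; intervals from counting cover counting error only.

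In R 4.3.3, edgeR 4.0.16 (filterByExpr, TMM scaling, robust quasi-likelihood fit with condition as the only term) tested 12730 genes after 2383 were removed, with Benjamini-Hochberg adjustment. Normalized counts are TMM-scaled counts at the mean library size. The standard error is the log2 fold change divided by the square root of F. Alternatives were DESeq2 1.42.0, limma 3.58.1 (voom, and on log2 of the deposited signal with a pseudocount of 1), other scalings, filters, thresholds, blocks and libraries left out. The script was tested on simulated data. Figures were drawn with Python 3.11.15 and matplotlib 3.10.9. Positions and overlaps come from GENCODE M21 on GRCm38, whose last 400 transcript bases were examined, and promoters from RefSeq. Named in full were the 6 lower and 6 higher members with the lowest p, and Mrps30, Mrps18a, Mrps36 and Mrpl12; others are named if called, in the stalk or tunnel lists, or at the extremes of level. Members that differ by library number, and the promoters shown, were chosen after their values were seen. Members and lists were chosen with earlier results of these data known.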

Additional observations from a re-analysis of the deposited data

Results flagged for a closer look

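In 7 of 154 groups of 6 libraries, over all 77 members, 1 library stood apart from the other 5, and chance alone gives about 1 in 20. Vehicle replicate 4 was the lowest for Mrpl13 with 1517 normalized counts (next 1582) and for Mrps15 with 1564 (next 1855), and the highest for Mrpl22 with 372.4 (next 324.5). Vehicle replicate 5 was the highest for Mrpl38 with 680.4 (next 642). Vehicle replicate 6 was the lowest for Mrps16 with 912 (next 1060), and vehicle replicate 2 was the lowest for Mrps18c with 905 (next 934). For Mrps28 BAM15 replicate 5 was the highest with 134 (next 26.85), and without that library its log2 fold change was -0.252 in place of 1.30.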

How the results depend on the processing

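Of the 18 called members, 7 kept their call under every alternative tried (Mrpl11, Mrpl18, Mrpl20, Mrpl24, Mrpl28, Mrps25 and Mrps30) and 0 changed sign under any. The count of lower members was 14 by limma on the deposited signal, 14 with a block for library numbers 1 to 3 against 4 to 6, 17 with numbers 1 to 3 only, and 15 at an adjusted p below 0.05. Higher members numbered 2 with library numbers 4 to 6 only. With numbers 1 to 3 only, 1 member (Mrps21) passed all thresholds, and Mrpl39 was called lower at -0.494 in place of 0.06. The median log2 fold change of the members was -0.0516 by limma on the signal (all tested genes -0.048), -0.0467 with scaling by library size only, and -0.0288 with numbers 4 to 6 only. Leaving out single libraries gave 7 to 12 lower and 8 to 10 higher members. The calls among all tested genes can shift with the setting too, so these counts alone do not show a shift particular to the members. The cause of these shifts was not tested. Lower and higher calls numbered 12 and 7 with library size only, and 14 and 7 by limma on the signal. By limma on the signal 42.5% of all tested genes were called in either direction. With the replicate block there were 10 lower and 8 higher members, and the median was 0.0067. The correlation of the deviations of same-numbered libraries was 0.184, 0.0229, 0.292, 0.148, -0.0719 and 0.272 for numbers 1 to 6, and since these were not all over 0.1 and no label ties the numbers to a shared culture or day, the libraries were not treated as paired. BAM15 libraries 1 to 3 all correlated best with vehicle replicate 3, and 4 to 6 all with vehicle replicate 6. Counts below 50 limit Mrps18b, Mrpl23, Mrps36 and Mrps28.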
